A study of Mus musculus with 18 samples.

Results

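The 7 genes of metal handling described here were Commd1, Atox1, Ccs, Mt1, Mt2, Mt3 and Fth1, each followed through every probe set whose single gene symbol in the probe annotation is its own. These 7 genes, of 12394 with a probe set of their own, were read by 12 probe sets of 22690 on the array (64 control probe sets aside), and no probe set listed a member among several symbols. The set was selected on measured values, the signal of Commd1 in mutant against control oculomotor nucleus on these same arrays, so that comparison is given as a description without a test. RNA of 2 regions of mice described as an ALS (amyotrophic lateral sclerosis) model was measured on Affymetrix Mouse 430A arrays, which report 1 signal per set of short probes. The groups were the oculomotor nucleus, the midbrain nucleus that moves the eyes, of mutants aged 10 weeks, controls aged 10 weeks and mutants aged 6 weeks, and the cervical spinal cord of the same 3 kinds of mice, with 3 arrays each. The labels name neither the mutation, its promoter, the strain nor the sex, do not say what the controls carry, and include no controls of 6 weeks, so age was compared within mutants and genotype within the mice of 10 weeks. Nothing in the labels says whether arrays came from separate animals or pools, so p-values measure the spread between these arrays, which may be technical. The 10-week oculomotor arrays that chose the set also enter the age comparison in that region and both comparisons of regions at 10 weeks. They enter the comparison of age changes between regions as well. The p-values of Commd1 in these are therefore not independent of the choice.

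Copper enters cells through transporters and is passed on by chaperones, because free copper is toxic. Atox1 carries copper to the export pumps Atp7a and Atp7b, and Ccs inserts copper into the superoxide dismutase Sod1. Commd1 binds those pumps and belongs to a complex that sorts them between endosomes and the cell surface, and in dogs a deletion of the gene causes copper to build up in the liver. Metallothioneins are small cysteine-rich proteins that bind zinc and copper: Mt1 and Mt2 are induced by metals and glucocorticoids and in the nervous system are made mainly by astrocytes, while Mt3 is a brain-enriched form that metals induce little. Fth1 is the heavy chain of ferritin, which oxidises and stores iron, and is abundant in oligodendrocytes and microglia.

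Of the 18 arrays, control spinal cord replicate 1 correlated with no other array above r = 0.0163 and is left out, which leaves 2 arrays in that group and 17 in all. Among the other arrays the lowest correlation of any pair was 0.955. They had been scaled by the authors to a trimmed mean of 500.1 to 500.2 and had median signals of 207 to 226. The ratio of 3' to 5' signals, a sign of RNA integrity, was 0.677 to 0.866 for Gapdh and 1.09 to 1.28 for Actb. Among tissue markers, the 5 tested motor neuron genes of 8 listed were called lower in the oculomotor nucleus in all 3 comparisons of regions. Summed over the 7 on the array, tested or not, the signals were 3068 to 4311 in the oculomotor nucleus and 8914 to 10475 in the spinal cord. The pituitary hormone Gh reached 13207 on 1 array of 10-week mutant oculomotor nucleus and 2934 on 1 of control oculomotor nucleus. In bulk tissue of this kind, fewer cells of a type and less RNA per cell cannot be told apart. Tests were run on log2(signal + 25) over 13575 probe sets above the lowest 40% of mean log2 signal, with limma on all 6 groups, and a difference was called at a Benjamini-Hochberg adjusted p under 0.05. Of the 12 member probe sets 9 passed that filter, at a mean log2 signal of 7.38 or more. The lowest of these was Ccs at 9.09, and just outside the filter lay Commd1 1424121_at at 7.21, followed by Mt1 1451612_at at 6.59 and Atox1 1460640_at at 4.91. Counts of members out of 9 below are counts of the probe sets that passed, in which Atox1 and Fth1 each have 2.

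Commd1, the member whose signal chose the set, also had the largest difference in the tested comparisons. On its brighter probe set, 1424122_s_at, the signal in mutants was about 2.8-fold that in controls in the spinal cord at 10 weeks, and within mutants the spinal cord at 10 weeks stood 2.35-fold above the spinal cord at 6 weeks. The mutant oculomotor nucleus was already high at 6 weeks and did not differ detectably between the ages. In the oculomotor nucleus the signals were 739, 1191 and 928 in 10-week mutants, 457, 309 and 404 in 10-week controls, and 759, 1076 and 997 in 6-week mutants. In the spinal cord they were 1246, 1174 and 1058 in 10-week mutants, 387 and 416 in 10-week controls, and 398, 466 and 585 in 6-week mutants. The 9 arrays of mutants in the oculomotor nucleus at either age and in the spinal cord at 10 weeks lay at 739 or above, and the other 8 lay at 585 or below, with no array between. The group means were 952.5 ± 227 in 10-week mutant oculomotor nucleus (SD, n = 3), 390.1 ± 75.0 in control oculomotor nucleus (n = 3) and 944 ± 165 in 6-week mutant oculomotor nucleus (n = 3). They were 1159 ± 95.1 in 10-week mutant spinal cord (n = 3), 402 ± 20.6 in control spinal cord (n = 2) and 483 ± 94.9 in 6-week mutant spinal cord (n = 3).

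**Figure D1:**
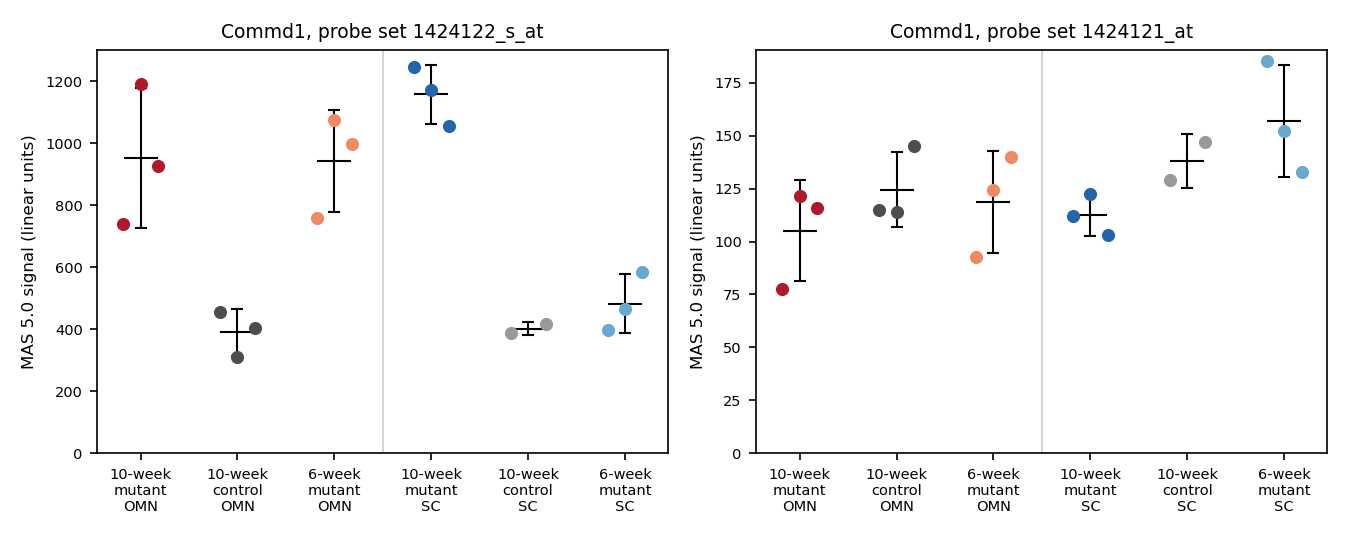
Signal of the 2 Commd1 probe sets on each of the 17 arrays (points), with the mean and SD of each group (bars), by group; OMN is the oculomotor nucleus, SC the cervical spinal cord. On 1424122_s_at 3 mutant groups lie at 739 or above and the other groups at 585 or below, while on the dimmer 1424121_at all arrays lie between 77.7 and 185.

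Commd1 rose in the spinal cord of 10-week mutants against controls by a log2 fold change of 1.47 ± 0.20 (SE; limma, adjusted p = 0.00717), higher on each of 3 mutant arrays than on either control array. It had the smallest p of all probe sets in that comparison and the second largest rise. This was 1 of 9 members, where 0.0221% of all tested probe sets were called, 3 probe sets in all; the others were Pja2, a ubiquitin ligase, at 0.81 ± 0.12 and Celf4, a neuronal RNA-binding protein, at -0.72 ± 0.12, named after their values were seen. The arrays of the genotypes did not overlap for 5 of 9 members there, against 27.5% of all tested probe sets. With only 2 control arrays the call rests on single arrays: the adjusted p was 0.139 without control spinal cord replicate 2, 0.0675 without control replicate 3 and 0.0545 without mutant replicate 2, in each of which no probe set was called, at log2 fold changes of 1.42 to 1.53 over all 5 omissions. The number of probe sets called was 51 without mutant replicate 1 and 1 without mutant replicate 3. The array set aside, of the same control group, had a Commd1 signal of 1319.7, and the fold change with all 18 arrays was 0.92 (limma, adjusted p = 0.277). That array correlated with no other above r = 0.0163, so its values may not belong to the named probe sets. Neither value is therefore read as a measure of Commd1.

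Between 10 and 6 weeks in mutant spinal cord, Commd1 rose by 1.23 ± 0.18 (SE; limma, adjusted p = 0.00288), the sixth smallest p of all probe sets, and the groups did not overlap. In this comparison 3 of 9 members were called, against 2.76% of all tested probe sets, and the other calls, on Atox1 and Fth1, are given with those genes. The arrays of the ages did not overlap for 4 of 9 members, against 23.6% of all tested probe sets. In mutant oculomotor nucleus the same difference of ages was 0.00 ± 0.18 (limma, adjusted p = 0.997), and none of 9 members was called there, where 3 probe sets (0.0221%) were called in all; at an unadjusted p under 0.05 there were 2 of 9, Mt1 and Mt2. The ages did not overlap in that region for 2 of 9 members, Mt2 and Fth1, against 14.2% of all tested probe sets. The age change of Commd1 was larger in the spinal cord than in the oculomotor nucleus by 1.23 ± 0.25 (SE; limma, adjusted p = 0.0459), a test added after the values were seen, in which 0.368% of all tested probe sets were called. That call is marginal: leaving out single arrays gave adjusted p-values from 0.0426 to 0.108, and 9 of 12 omissions lost it. The call of the age change within the spinal cord was kept in all 6 omissions, at adjusted p-values of 0.00449 to 0.0147.

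Between regions, Commd1 was higher in the oculomotor nucleus than in the spinal cord in 6-week mutants, by 0.93 ± 0.18 (SE; limma, adjusted p = 7.52e-04), a 1.91-fold difference that each of 6 omissions kept. In 10-week mutants the difference was -0.30 ± 0.18 (limma, adjusted p = 0.250) and in 10-week controls -0.06 ± 0.20 (limma, adjusted p = 0.897), and the arrays of the regions overlapped in both. In the oculomotor nucleus at 10 weeks, the comparison that chose the members, mutants stood above controls by 1.23 ± 0.18, 2.34-fold, with no overlap, and the range over 6 omissions was 1.06 to 1.39. That was the only member of 9 at least 2-fold apart there, where 0.287% of all tested probe sets were. The arrays of 5 of 9 members did not overlap in that comparison, beside 24.0% of all tested probe sets, of which 1.47% were called, and nothing is read from these since it chose the set.

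The dimmer Commd1 probe set, 1424121_at, did not share this pattern. Its signals were 77.7, 122 and 116 in 10-week mutant oculomotor nucleus, 115, 114 and 145 in control oculomotor nucleus and 92.6, 124 and 140 in 6-week mutant oculomotor nucleus. The spinal cord had 112, 123 and 103 in 10-week mutants, 129 and 147 in controls, and 185, 152 and 133 in 6-week mutants. Where 1424122_s_at was higher in 10-week mutant spinal cord than in control spinal cord, this probe set was lower on all 3 mutant arrays, by 0.25 on the log2 scale, and it was likewise lower than at 6 weeks, by 0.39, with no test because it fell below the filter. The suffix _s_at marks a probe set whose probes can match transcripts of more than 1 gene or variant, and _at one designed for a single transcript. Atox1 1415760_s_at, Mt1 1422557_s_at and Fth1 1427021_s_at carry it as well, and which transcripts they matched was not tested. Another gene, Zrsr1, lies within the span of Commd1 on chromosome 11 in the gene table, and no probe set carries its symbol. Which transcript the brighter probe set followed was not tested.

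Measures of the arrays and of other RNAs were set beside the Commd1 signal. The correlation of its log2 signal with the 99.9th percentile of each array was 0.77 over 17 arrays, a description in which arrays of a group share their tissue. After quantile normalization, which gives every array 1 distribution, its fold changes were 0.94 between regions in 6-week mutants, 1.49 between genotypes in spinal cord and 1.24 between ages in spinal cord, so each was as large as before. Its correlation with the 3' to 5' ratio was 0.28 for Actb and -0.05 for Gapdh. Within the spinal cord at 10 weeks, however, the Gapdh ratio split by genotype without overlap, at 0.677, 0.782 and 0.772 in mutants against 0.816 and 0.798 in controls. The ratio also split by region in every kind of mouse. In 6-week mutants it was 0.849 to 0.866 in the oculomotor nucleus against 0.741 to 0.834 in the spinal cord. In 10-week mutants it was 0.786 to 0.832 against 0.677 to 0.782. In 10-week controls the order was reversed, at 0.741 to 0.786 against 0.798 to 0.816. Mutant oculomotor nucleus was without overlap higher at 6 than at 10 weeks, and at 10 weeks barely above controls (0.7865 against 0.7863). The noncoding RNA Malat1 also split by genotype, at 4132 to 8433 in 10-week mutant oculomotor nucleus against 120.5 to 269 in control oculomotor nucleus, and at 719.7 to 3171 in 10-week mutant spinal cord against 211.5 to 418 in control spinal cord, but in 6-week mutant spinal cord, where Commd1 was low, it stood at 1267 to 3949.9. The 9 microglia markers tested of 10 lay above 0 in the genotype comparison of the spinal cord, at a median log2 fold change of 0.38 with none called by limma (6 at an unadjusted p under 0.05). Summed over all 10, the microglia signal was 9737 to 12268 in 10-week mutant and 8062 to 8781 in control spinal cord. Beside the age change in mutant spinal cord, the 9 microglia markers lay above 0, at a median of 0.22 with none called by limma (3 at an unadjusted p under 0.05), and the 9 meninges and fibroblast markers lay below 0, at a median of -0.54 with 4 called lower and 8 at an unadjusted p under 0.05. Summed over all 10 meninges and fibroblast genes listed, the signal there was 6406 to 8763 at 10 weeks and 11388 to 12167 at 6 weeks. The part of these in the differences of Commd1, in the age changes of Atox1 and Fth1, and in the region differences of Atox1, Mt1, Mt2 and Fth1 was not tested.

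The other COMMD genes and the partners of their complex did not follow Commd1 to a similar extent. Of 12 listed genes 9 were on the array and 8 were tested. In the genotype comparison of the spinal cord all 8 fold changes were above 0, from 0.01 to 0.42 with a median of 0.15, and none was called by limma (1 at an unadjusted p under 0.05), beside a median of 0.00 over all tested probe sets. Between 10 and 6 weeks in mutant spinal cord 7 lay above 0 and 1 below, at a median of 0.07, beside 0.02 over all tested probe sets. Commd9 rose there by 0.63 ± 0.15 (limma, adjusted p = 0.0323) and was the only 1 of the 8 called. The age by region differences of all 8 were above 0, from 0.02 to 0.77 with a median of 0.17, beside 0.01 over all tested probe sets. None of these was called by limma (2 at an unadjusted p under 0.05). Commd5 was lower in the oculomotor nucleus than in the spinal cord of 10-week mutants, at -0.63 ± 0.14 (limma, adjusted p = 0.00444), and no other gene of the list was called in any comparison of regions. In the oculomotor nucleus at 10 weeks, described without a test, the 8 fold changes of mutants over controls had a median of -0.01, with Commd5 the lowest at -0.51 and Commd9 at 0.09.

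Atox1, the chaperone of the export pumps, was measured by 3 probe sets that disagreed. On 1460639_a_at, the brightest, the oculomotor nucleus had 1711.5, 1932 and 1819.5 in 10-week mutants, 1802, 1611 and 1883 in 10-week controls, and 2071, 1638 and 2155 in 6-week mutants. The spinal cord had 2326, 2092 and 2396 in 10-week mutants, 1767 and 2208 in 10-week controls, and 2273, 2557 and 2438 in 6-week mutants. The spinal cord was thus the higher region, without overlap in mutants of either age and with overlap in controls. The log2 fold change of the oculomotor nucleus over the spinal cord was -0.31 ± 0.11 (SE) in 6-week mutants (limma, adjusted p = 0.0474) and -0.31 ± 0.11 in 10-week mutants (limma, adjusted p = 0.0548), so only that at 6 weeks passed, and 4 of 6 omissions lost it. In 10-week controls it was -0.16 ± 0.12 (limma, adjusted p = 0.439). No genotype or age difference on this probe set was called, with values of -0.09 to 0.20.

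On 1415760_s_at the oculomotor nucleus had 1046.5, 1081 and 1199 in 10-week mutants, 928, 926 and 1003 in 10-week controls, and 1115.5, 1202.5 and 1301 in 6-week mutants. The spinal cord had 1119, 1136 and 1165 in 10-week mutants, 1703 and 1541 in 10-week controls, and 1454, 1536 and 1388 in 6-week mutants. Control and 6-week mutant spinal cord lay above every other group, and 10-week mutant spinal cord lay among the oculomotor arrays. In 10-week controls the oculomotor nucleus was lower by a log2 fold change of -0.75 ± 0.10 (SE; limma, adjusted p = 3.82e-05), a call that 5 of 5 omissions kept. In 6-week mutants it was lower by -0.27 ± 0.09 (limma, adjusted p = 0.0329), which 4 of 6 omissions lost, and in 10-week mutants the value was -0.04 ± 0.09 (limma, adjusted p = 0.790). Within mutant spinal cord it was lower at 10 than at 6 weeks, -0.35 ± 0.09 (limma, adjusted p = 0.0431), a call lost in each of 6 omissions at adjusted p-values up to 0.128. The mutant over control value in the spinal cord was -0.50 ± 0.10 (limma, adjusted p = 0.0944), lower on every mutant array, whereas on 1460639_a_at it was 0.20 ± 0.12 (limma, adjusted p = 0.557). In the oculomotor nucleus, without a test, mutants stood above controls by 0.21 on 1415760_s_at, again without overlap, and by 0.05 on 1460639_a_at. The log2 signals of the 2 probe sets correlated at 0.47 over 17 arrays and at 0.05 within groups. After quantile normalization 3 Atox1 calls passed no longer at values close to those above: the region differences in 6-week mutants were -0.22 on 1415760_s_at and -0.28 on 1460639_a_at (limma, adjusted p = 0.0896 and 0.0734), and the age difference was -0.31 (limma, adjusted p = 0.0858). The region call in 10-week controls was kept at -0.76. The remaining probe set, 1460640_at, stayed at 1.4 to 14.5.

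Ccs, the chaperone of Sod1, was called in no comparison. Its signals in the oculomotor nucleus were 494, 606.5 and 451.5 in 10-week mutants, 486, 458 and 514 in 10-week controls, and 510.1, 412 and 487.5 in 6-week mutants. In the spinal cord they were 611.5, 522 and 468.5 in 10-week mutants, 573 and 519 in 10-week controls, and 564, 704 and 512 in 6-week mutants. The arrays of the genotypes and ages overlapped in both regions, and the oculomotor arrays lay below the spinal ones in 6-week mutants and in controls. The largest fold change was that between regions in 6-week mutants, -0.31 ± 0.14 (SE; limma, adjusted p = 0.103), and the other differences of regions, genotypes and ages lay between -0.16 and 0.13, with standard errors of 0.14 to 0.15. The age by region difference, added later, was -0.27 ± 0.19 (limma, adjusted p = 0.523).

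Of 24 genes in the wider list of copper genes, 20 were on the array and 17 were tested. Regions differed in 6-week mutants for 6 of them, with 4 higher and 2 lower in the oculomotor nucleus, where 23.9% of all tested probe sets were called. App, the copper-binding precursor of amyloid beta, was higher by 0.46 ± 0.10 (limma, adjusted p = 0.00194) and Dbh, the copper enzyme that makes noradrenaline, by 0.97 ± 0.27 (limma, adjusted p = 0.0143), and Sco2 and Slc25a3, which supply copper to mitochondria, were at 0.53 and 0.36. Loxl1, a copper-dependent crosslinker of matrix, was lower at -1.82 ± 0.44 (limma, adjusted p = 0.00538). Cp, the copper ferroxidase ceruloplasmin, was lower in all 3 comparisons of regions, at -1.30 ± 0.16 in 6-week mutants (limma, adjusted p = 1.17e-05), -0.68 ± 0.16 in 10-week mutants (limma, adjusted p = 0.00582) and -0.89 ± 0.18 in 10-week controls (limma, adjusted p = 0.00241). Xiap, a ubiquitin ligase that acts on Commd1, was higher in the oculomotor nucleus of 10-week mutants at 0.29 ± 0.09 (limma, adjusted p = 0.0249), named after its value was seen. None of the 17 was called by limma between genotypes in the spinal cord, between ages in the spinal cord or between ages in the oculomotor nucleus, with 2, 4 and 4 at an unadjusted p under 0.05. Their medians there were 0.11 between genotypes in the spinal cord, 0.16 between ages in the spinal cord and -0.04 between ages in the oculomotor nucleus, beside 0.00, 0.02 and 0.00 over all tested probe sets.

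**Figure D2:**
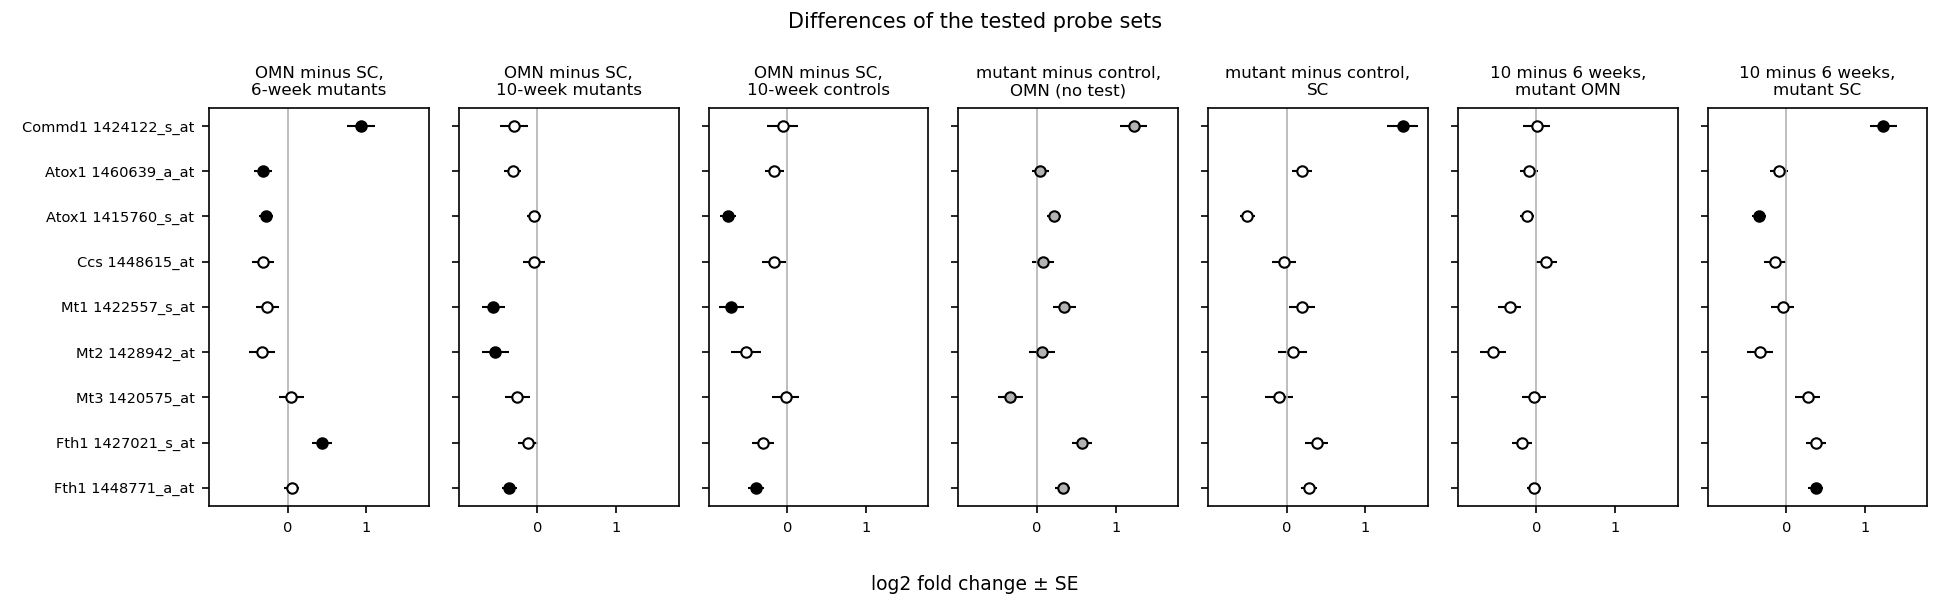
Log2 fold change ± SE of the 9 tested member probe sets in each comparison except age by region, which is not drawn. OMN is the oculomotor nucleus and SC the cervical spinal cord. Filled points are called at an adjusted p under 0.05, open points are not, and grey points belong to the comparison that was not tested. Commd1, whose signal chose the set, stands furthest from 0, at 1.47 between genotypes in the spinal cord, while the values of the other genes lie between -0.75 and 0.57.

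The inducible metallothioneins Mt1 and Mt2 were lower in the oculomotor nucleus than in the spinal cord of 10-week mutants, Mt1 also in 10-week controls, and Mt3 was called in no comparison of regions. The upstream sequences of Mt1 and Mt2, neighbours on chromosome 8, are shown because both genes carry the core of the metal response element that the zinc sensor Mtf1 binds and because their signals moved together over the arrays. Each is the stretch of 250 bases before the RefSeq start on the plus strand of GRCm38.p6, at chr8:94178839-94179088 for Mt1 and chr8:94172368-94172617 for Mt2, with matches in capitals to TGCACNC or TGCGCNC on either strand.
Mt1: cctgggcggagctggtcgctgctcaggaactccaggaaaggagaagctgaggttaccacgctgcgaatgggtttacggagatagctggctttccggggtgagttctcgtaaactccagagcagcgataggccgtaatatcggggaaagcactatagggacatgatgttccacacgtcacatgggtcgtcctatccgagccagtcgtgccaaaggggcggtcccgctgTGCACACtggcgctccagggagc
Mt2: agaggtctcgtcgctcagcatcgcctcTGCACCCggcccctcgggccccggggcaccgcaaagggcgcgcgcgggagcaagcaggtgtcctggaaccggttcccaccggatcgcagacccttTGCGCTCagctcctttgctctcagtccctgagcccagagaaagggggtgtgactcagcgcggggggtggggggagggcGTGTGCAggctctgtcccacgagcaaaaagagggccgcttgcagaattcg
Mt1 held 1 match and Mt2 held 3, where 21.4% of 32851 such windows held at least 1 and 1.26% at least 3. With the next 50 bases counted, Mt1 held 3 and Mt2 held 4, against 1.97% of windows with at least 3 and 0.517% with at least 4. The Mt3 stretch held none before the start, and 1 in the 300 bases. Each of the 2 Commd1 windows also held 1 match before the start, as many as Mt1, but still only 1 in the 300 bases, where Mt1 held 3. Those of Atox1 and Fth1 held none in either stretch. Of the 7 genes 6 had a window, all but Ccs, and a match is a match of letters only.

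Mt1 on probe set 1422557_s_at had 6574, 7254 and 7088 in 10-week mutant oculomotor nucleus, 5388, 5713 and 5305 in control oculomotor nucleus, and 6336, 9017 and 12041 in 6-week mutant oculomotor nucleus. Spinal signals were 10086.5, 10779.7 and 9967 in 10-week mutants, 9104 and 8794.5 in 10-week controls, and 9751, 11643 and 10453 in 6-week mutants. At 10 weeks every oculomotor array lay below every spinal array of the same genotype, and at 6 weeks the oculomotor arrays spread widely and overlapped the spinal ones. The log2 fold change of the oculomotor nucleus over the spinal cord was -0.56 ± 0.15 (SE) in 10-week mutants (limma, adjusted p = 0.0110), kept in each of 6 omissions, and -0.71 ± 0.16 in 10-week controls (limma, adjusted p = 0.00595), lost without control spinal cord replicate 2 (adjusted p = 0.0657). In 6-week mutants it was -0.26 ± 0.15 (limma, adjusted p = 0.208). In 10-week mutants 3 of 9 members were called, all lower, where 19.3% of all tested probe sets were called and 9.99% called lower; 4 of 9 members had regions that did not overlap, against 36.0% of all. In 10-week controls it was again 3 of 9, all lower, where 13.6% were called and 6.94% called lower; 6 of 9 had regions that did not overlap, against 46.0% of all. Between genotypes Mt1 was 0.20 ± 0.16 in the spinal cord (limma, adjusted p = 0.672), higher on each mutant array, and, untested, 0.35 in the oculomotor nucleus, where the 3 mutant arrays lay above the 3 controls (0.22 after quantile normalization).

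Mt2 had 3674, 3246 and 2637 in 10-week mutant oculomotor nucleus, 3092, 2614.5 and 3395 in control oculomotor nucleus, and 3683, 4311 and 6227 in 6-week mutant oculomotor nucleus. In the spinal cord it had 4879, 4575 and 4293 in 10-week mutants, 4096 and 4608 in 10-week controls, and 4733, 6155 and 6661 in 6-week mutants. As for Mt1, the regions did not overlap at 10 weeks in either genotype, and the highest oculomotor array, 6-week mutant replicate 3, was the same. The region difference was -0.53 ± 0.17 (SE) in 10-week mutants (limma, adjusted p = 0.0304), a call that 4 of 6 omissions lost. Median centring and leaving out the filter lost it too (limma, adjusted p = 0.0549 and 0.0579). The difference was -0.52 ± 0.19 in 10-week controls (limma, adjusted p = 0.0703) and -0.32 ± 0.17 in 6-week mutants (limma, adjusted p = 0.170). Between 10 and 6 weeks Mt2 was at -0.55 ± 0.17 in mutant oculomotor nucleus (limma, adjusted p = 0.274), without overlap, and at -0.34 ± 0.17 in mutant spinal cord (limma, adjusted p = 0.262). The genotype value was 0.07 ± 0.19 in the spinal cord (limma, adjusted p = 0.915) and, untested, 0.06 in the oculomotor nucleus, with overlap in both. The log2 signals of Mt1 and Mt2 correlated at 0.86 over 17 arrays and at 0.61 within groups, a description of arrays that share tissue and hybridisation. The Mt1 probe set has the suffix _s_at, and whether it also read Mt2 was not tested.

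**Figure D3:**
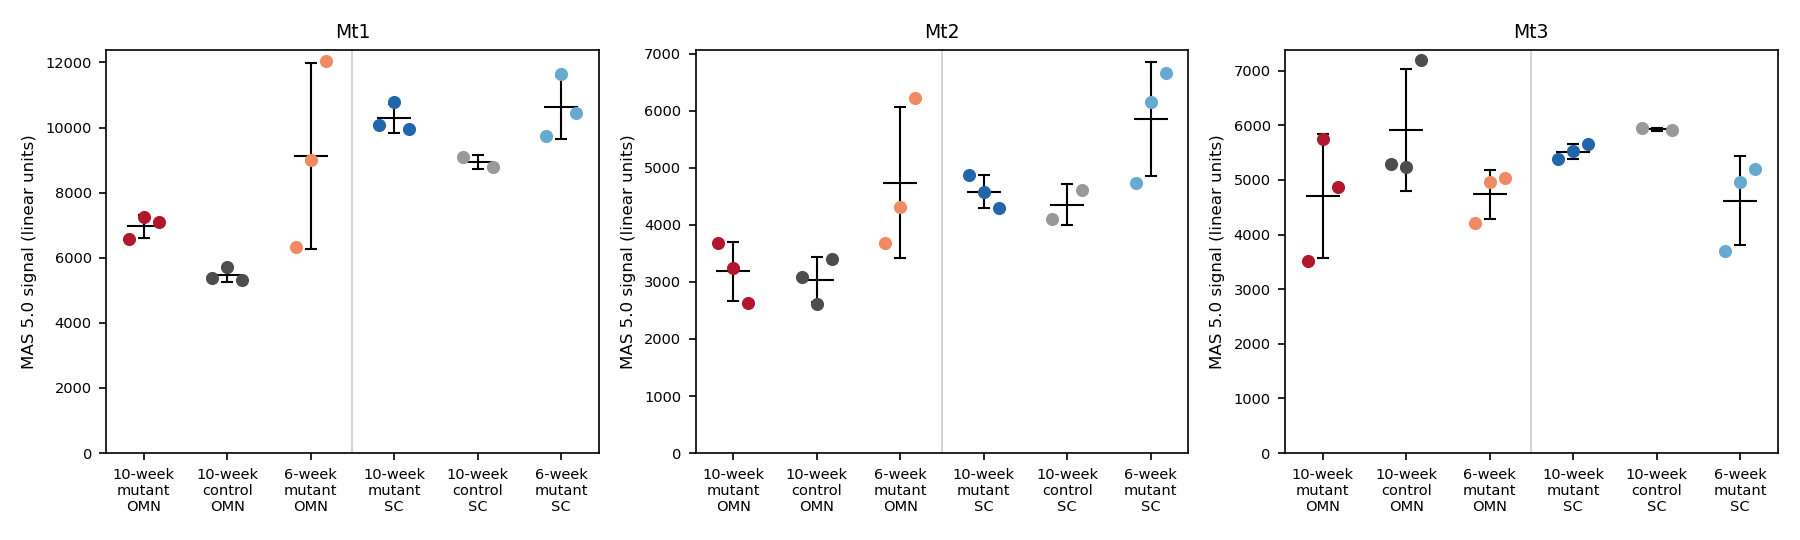
Signal of Mt1 (1422557_s_at), Mt2 and Mt3 on each of the 17 arrays (points), with the mean and SD of each group (bars), by group; OMN is the oculomotor nucleus, SC the cervical spinal cord. For Mt1 and Mt2 the oculomotor groups of 10 weeks lie below the spinal ones and the 6-week oculomotor arrays spread up to 12041 and 6227, while Mt3 shows no order by region.

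Mt3 had 3508, 5756 and 4874 in 10-week mutant oculomotor nucleus, 5298, 5231 and 7194 in control oculomotor nucleus, and 4220.3, 4956 and 5029.6 in 6-week mutant oculomotor nucleus. Spinal signals were 5375, 5531 and 5651 in 10-week mutants, 5943 and 5906 in 10-week controls, and 3693, 4961 and 5208 in 6-week mutants. Regions overlapped in every kind of mouse, and the fold changes between them were 0.05 in 6-week mutants, -0.26 in 10-week mutants and -0.02 in 10-week controls (limma, adjusted p = 0.863, 0.276 and 0.958). In the spinal cord, mutants of 10 weeks lay below controls on every array at -0.10 ± 0.18 (limma, adjusted p = 0.873) and above mutants of 6 weeks on every array at 0.27 ± 0.16 (limma, adjusted p = 0.348), neither of them called. Between genotypes in the oculomotor nucleus, untested, it stood at -0.34 with overlap, and at -0.14 without mutant replicate 1 and -0.19 without control replicate 3. Its log2 signals correlated with those of Mt1 at -0.06 and of Mt2 at -0.06 over 17 arrays. The dim second probe set of Mt1, 1451612_at, ranged from 26.4 to 139 and was not tested.

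Markers of astrocytes and of the meninges were set beside the metallothioneins. Astrocyte markers went both ways between regions, with medians of -0.06 in 6-week mutants (2 of 10 called higher and 4 lower), -0.25 in 10-week mutants (1 higher and 3 lower) and -0.26 in 10-week controls (1 higher and 4 lower). Summed over the 10 astrocyte genes listed, all tested, the signal was 37164 to 41336 in the oculomotor nucleus and 41155.5 to 43004 in the spinal cord of 6-week mutants, 39726 to 40012 and 47565 to 48961 in those regions of 10-week mutants, and 33389 to 34901 and 42434 to 48459 in those of 10-week controls. The 5 reactive astrocyte genes tested of 10, led by Gfap, had median log2 fold changes of -1.59 in 6-week mutants, -1.47 in 10-week mutants and -1.18 in 10-week controls. Summed over all 10 listed, tested or not, the signal was 4024 to 5614 in the oculomotor nucleus and 14323 to 18413 in the spinal cord. The 9 meninges and fibroblast genes tested of 10 were lower in the oculomotor nucleus in each comparison of regions, with medians of -1.64 in 6-week mutants, -1.27 in 10-week mutants and -1.21 in 10-week controls, and 9, 8 and 7 called lower. Summed over all 10 meninges and fibroblast genes, the signal was 3179 to 4280 in the oculomotor nucleus and 6406 to 12167 in the spinal cord. The 10 glucocorticoid-response genes had medians of -0.32, -0.19 and -0.28 in the same comparisons, with 3, 2 and 2 genes called lower and 0, 1 and 0 called higher. The part of these in the region differences of Mt1, Mt2, Loxl1 and Cp was not tested. Of zinc transporters and the sensor, 13 of 19 listed genes were tested: Slc39a1, a zinc importer, was lower in the oculomotor nucleus of 6-week mutants, at -0.62 ± 0.17 (limma, adjusted p = 0.0142), Slc30a3, which fills synaptic vesicles with zinc, was lower in that of 10-week controls, at -0.54 ± 0.18 (limma, adjusted p = 0.0497), and Slc39a6 was higher in that of 10-week mutants, at 0.33 (limma, adjusted p = 0.0402). None was called by limma between genotypes in the spinal cord, between ages in the spinal cord or between ages in the oculomotor nucleus, with 2, 4 and 1 at an unadjusted p under 0.05.

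Fth1 differed by moderate amounts, and its signal moved with the top of each array's scale. On 1427021_s_at the oculomotor nucleus had 18763, 18717 and 18939 in 10-week mutants, 11864, 13095 and 13105.5 in 10-week controls, and 19187, 23903 and 21157 in 6-week mutants. The spinal cord had 16594, 24407 and 21079.9 in 10-week mutants, 18452 and 13354 in 10-week controls, and 14611, 17267 and 15358 in 6-week mutants. The control oculomotor nucleus was the lowest group and lay below every other array, and the 6-week oculomotor arrays lay above all spinal arrays of that age. The difference of regions in 6-week mutants was 0.44 ± 0.13 (SE; limma, adjusted p = 0.0172), which 3 of 6 omissions lost. Here 4 of 9 members were called, against 23.9% of all tested probe sets. Commd1 and Fth1 were the 2 higher ones (12.2% of all), both Atox1 probe sets the 2 lower ones (11.7% of all), and for 5 of 9 members the regions did not overlap (37.4% of all). In 10-week controls the difference was -0.31 ± 0.14 (limma, adjusted p = 0.173) and in 10-week mutants -0.12 ± 0.13 (limma, adjusted p = 0.554). Between genotypes it was 0.38 ± 0.14 in the spinal cord (limma, adjusted p = 0.321), with overlap, and, untested, 0.57 in the oculomotor nucleus, without, which was 0.11 after quantile normalization.

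On 1448771_a_at the oculomotor nucleus had 13040.2, 13589 and 14259 in 10-week mutants, 10457, 10421 and 11788.5 in 10-week controls, and 12392, 14851.5 and 14688 in 6-week mutants. The spinal cord had 15316, 18328.5 and 18952 in 10-week mutants, 15239 and 13470.2 in 10-week controls, and 12839, 13718 and 13847 in 6-week mutants. On this probe set 10-week mutant spinal cord was the highest group, above every array of the others, and the control oculomotor nucleus the lowest. The oculomotor nucleus was lower than the spinal cord in 10-week mutants, at -0.36 ± 0.09 (SE; limma, adjusted p = 0.0113), and in 10-week controls, at -0.40 ± 0.10 (limma, adjusted p = 0.0150), but not in 6-week mutants, at 0.05 ± 0.09 (limma, adjusted p = 0.746). Mutant spinal cord was higher at 10 than at 6 weeks by 0.37 ± 0.09 (limma, adjusted p = 0.0395). Of these calls, 2 of 6 omissions lost that in mutants, 3 of 5 that in controls and 5 of 6 that between ages. Median centring, no filter and the arrays of the comparison alone also lost the call between ages (limma, adjusted p = 0.0983, 0.0951 and 0.113). The genotype difference was 0.28 ± 0.10 in the spinal cord (limma, adjusted p = 0.312) and, untested, 0.32 in the oculomotor nucleus, without overlap in either.

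**Figure D4:**
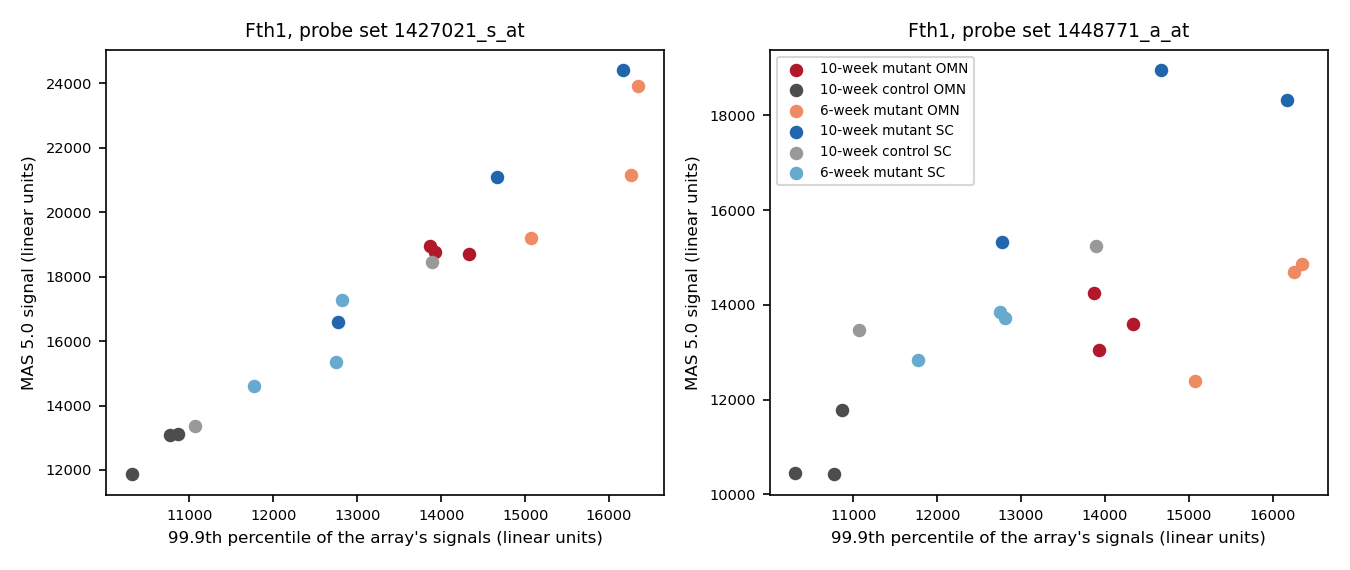
Signal of the 2 Fth1 probe sets on each of the 17 arrays against the 99.9th percentile of all signals on that array, both in linear units on axes that do not start at 0; colours give the group, OMN the oculomotor nucleus and SC the cervical spinal cord. The points of 1427021_s_at lie close to a rising line (r = 0.98 on the log2 scale), and those of 1448771_a_at scatter more (r = 0.71).

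Both Fth1 probe sets lie at the top of the scale, where arrays with the same trimmed mean can still differ. Their signals ranked 2 to 9 and 7 to 44 among all probe sets on every array, which is a place in the range of the scanner and not a measure of transcripts. The 99.9th percentile of the arrays was 13866 to 14336 in 10-week mutant oculomotor nucleus, 10311 to 10867 in control oculomotor nucleus and 15068 to 16350 in 6-week mutant oculomotor nucleus, and 12772 to 16171 in 10-week mutant, 11070 to 13891 in control and 11771 to 12814 in 6-week mutant spinal cord. Log2 Fth1 signal correlated with it at 0.98 for 1427021_s_at and 0.71 for 1448771_a_at, over 17 arrays. Quantile normalization gives a rank the same value on every array, so a probe set that stays among the brightest ranks can differ little after it, whatever the cause. The part of this in the smaller Fth1 values below was not tested. After it the region difference of 1427021_s_at in 6-week mutants was 0.04 (limma, adjusted p = 0.602), and that of 1448771_a_at was -0.15 in 10-week controls (limma, adjusted p = 0.237). The age difference of 1448771_a_at in mutant spinal cord was then 0.06 (limma, adjusted p = 0.723), and its genotype difference in the oculomotor nucleus turned to -0.089. The region difference of 1448771_a_at in 10-week mutants kept its call, at -0.22 (limma, adjusted p = 0.0366). The genes with the most similar log2 signals to 1427021_s_at over the 17 arrays were Mbp, Tpt1 and Actb, at r = 0.96, 0.96 and 0.95, which are bright genes as well.

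**Figure D5:**
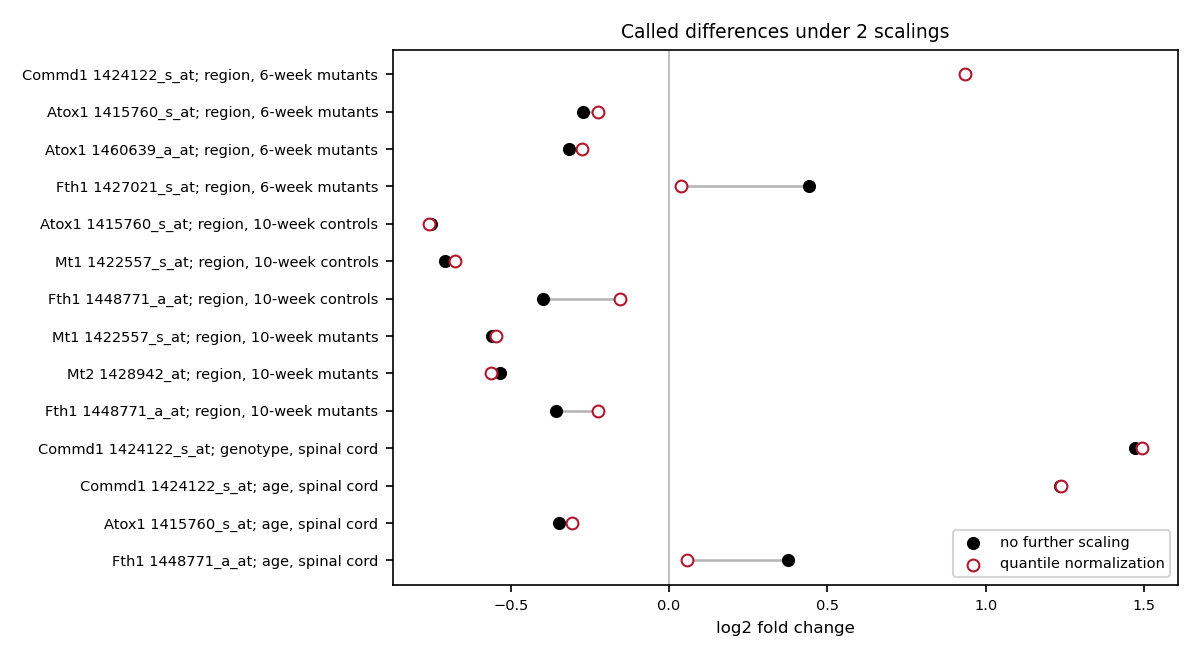
Log2 fold change of each called member difference without further scaling (black) and after quantile normalization (open red), with a grey line between them. The called age by region difference of Commd1 is not drawn. The Fth1 values move toward 0, from 0.44 to 0.04 in 6-week mutants for 1427021_s_at, while those of Commd1, Mt1, Mt2 and Atox1 stay near their places. The method leaves probe sets at the brightest ranks little room to differ.

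Oligodendrocyte and microglia markers, the cells richest in ferritin, were measured beside Fth1. The 9 oligodendrocyte genes tested of 12 listed were summed at 57694.5 to 58743 in the oculomotor nucleus and 60317 to 64039 in the spinal cord of 6-week mutants, 43046 to 47669.7 and 56817 to 72895 in those regions of 10-week mutants, and 34138 to 37418 and 54856 to 66002 in those of 10-week controls. Their median region differences were -0.50, -0.77 and -0.92 in that order, with 6, 7 and 9 of 9 called lower. Between genotypes in the spinal cord their median was -0.01, with none called by limma (1 at an unadjusted p under 0.05), beside the Fth1 values of 0.38 and 0.28 there. The 9 microglia genes tested were below 0 in each comparison of regions, with medians of -0.50 in 6-week mutants, -0.73 in 10-week mutants and -0.43 in 10-week controls, and 5, 8 and 4 called lower. All 10 microglia genes listed, tested or not, were summed at 6396 to 6665 in 10-week mutant oculomotor nucleus and 5705 to 6297 in control oculomotor nucleus. The part of either in the Fth1 differences was not tested. Of other iron genes 11 of 20 listed were tested. Besides Cp, Aco1, an iron-sensing regulator of ferritin translation, was lower in the oculomotor nucleus of 6-week mutants at -0.67 ± 0.11 (limma, adjusted p = 2.90e-04). Hfe and the transferrin receptor Tfrc were lower in that of 10-week mutants at -0.70 ± 0.13 and -0.50 ± 0.12 (limma, adjusted p = 0.00113 and 0.00602), and Ireb2, the partner of Aco1, was higher there at 0.57 ± 0.14 (limma, adjusted p = 0.00697). No iron gene of the list was called by limma between genotypes in the spinal cord, between ages in the spinal cord or between ages in the oculomotor nucleus, with 2, 3 and 2 at an unadjusted p under 0.05.

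The genes whose log2 signals were most like each member's over the 17 arrays, by Pearson's r, were found among tested probe sets with 1 symbol. For Commd1 they were Cxcl14, Fgfr4 and Gipc2, at 0.87, 0.87 and 0.85. For Mt1 they were Hccs, Htra1 and Rpp30, at 0.93, 0.92 and 0.92, and for Mt2 they were Hip1, Slc2a1 and Ramp2, at 0.92, 0.91 and 0.91. For Atox1 they were Adipor2, Cckbr and Sh3bp5l, at 0.88, 0.87 and 0.85, for Ccs Prpsap1, H2ax and Siva1, at 0.77, 0.77 and 0.76, and for Mt3 Tpd52l2, Mrpl15 and Tmem147, at 0.81, 0.80 and 0.80. Each list is the top of the correlations with all those probe sets over arrays that share tissue, so a high r is a description only. Commd1 and Fth1 1427021_s_at correlated at 0.77 over all arrays and at 0.00 within groups.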

How the data were processed

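The values are the authors' deposited MAS 5.0 signals, probe set intensities on a linear scale made with Affymetrix Microarray Suite 5.0 per the series' design text, with scaling to a common trimmed mean seen in the files; no background or probe-level values were used here. The fit used 17 of 18 arrays, all but replicate 1 of the control spinal cord, which correlated with no other array. Signals were taken as log2(signal + 25), the lowest 40% of probe sets by mean log2 signal were dropped, and limma 3.58.1 in R 4.3.3 fitted 6 group means with 11 residual degrees of freedom, with empirical Bayes moderation that follows the mean. P-values were adjusted by Benjamini-Hochberg over 13575 probe sets. Probe symbols came from the platform annotation, updated through gene IDs for 20351 of 20380 probe sets with 1 symbol. Nothing paired the replicates in the labels. The limma step was tested on simulated data.

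Values are given for each array for the brightest probe set of each gene and for any other that was called or at least 2-fold apart between genotypes in the oculomotor nucleus; of each gene list up to 4 tested genes with the smallest p were named, and others called were named after their values were seen. For each gene the 3 most similar genes by correlation were named. The members and lists were chosen with earlier results of these data known, so that no pattern here is independent support for them. Alternatives were quantile normalization, median centring, an offset of 100, no filter and a filter of 60%, a replicate block, the arrays of each comparison alone, all 18 arrays, the submitters' rule of consistent pairwise change over 2-fold, and leaving out each array. Upstream sequences are RefSeq's for GRCm38.p6.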

Additional observations from a re-analysis of the deposited data

Results flagged for a closer look

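The age change of Commd1 on 1424122_s_at was larger in mutant spinal cord than in mutant oculomotor nucleus by 1.23 on the log2 scale (limma, adjusted p = 0.0459), at 1.23 in the spinal cord and 0.00 in the oculomotor nucleus. On Atox1 1415760_s_at every mutant array lay above the controls in the oculomotor nucleus, at 0.21, and below them in the spinal cord, at -0.50, a difference of 0.71 that was not tested. On Fth1 1427021_s_at the oculomotor nucleus lay above the spinal cord on every array in 6-week mutants, at 0.44, and below it in 10-week controls, at -0.31, a difference of 0.75 that was not tested.

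On the array that was left out, control spinal cord replicate 1, the member probe sets listed next were brighter than on either other control spinal cord array. The remaining member probe sets were not. Commd1 1424121_at had a signal of 952.5 there and at most 147 on the other control spinal cord arrays, and Commd1 1424122_s_at had 1319.7 there and at most 416 on them. Atox1 1460640_at had 2053 there and at most 4.6 on them. Mt1 1451612_at had 780.2 there and at most 139 on them.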

How the results depend on the processing

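Of 19 member values 15 were called, and the others were untested genotype values in the oculomotor nucleus. A called value counted as kept if its direction and call held. An untested one was kept if its direction held and it moved by less than the SD within groups. All 19 were kept with an offset of 100 and with a filter of 60%, and 18 with the replicate block. The exception there was the age by region difference of Commd1 (limma, adjusted p = 0.0510). Median centring kept 16, no filter 15, the arrays of each comparison alone 14, quantile normalization 10 and all 18 arrays 4. The untested fold changes could not change with either filter setting, the replicate block, the arrays of each comparison alone or all 18 arrays. They count as kept there by construction. With all 18 arrays the 4 kept were these untested values, and no call was kept. Same-numbered arrays deviated with correlations of -0.09 to 0.13. With 2 or 3 arrays a group such values cannot show whether the numbers pair the samples, and the labels do not say. With all 18 arrays the counts of called members were 0 in the 3 comparisons of regions, 0 between genotypes and between ages in the spinal cord, and 0 for age by region, and in 10-week controls the region values turned to 0.23 for Atox1 1415760_s_at, 0.70 for Mt1 and 0.51 for Fth1 1448771_a_at. These results rest on the array that correlated with no other, so nothing about the genes is read from them. Fitted on the arrays of each comparison alone, the counts were 2 in 6-week mutants, 1 between ages in the spinal cord and 0 for age by region. With the submitters' pairwise rule the counts were 0 in the 3 comparisons of regions and 1 between ages in the spinal cord. Quantile normalization gave 1 between ages in the spinal cord and 0 for age by region, and turned the untested genotype value of Fth1 1448771_a_at in the oculomotor nucleus to -0.089. Median centring, no filter and the replicate block gave 0 for age by region. Leaving out single arrays gave 1 to 6 called members in 6-week mutants, 1 to 4 in 10-week controls, 2 to 3 in 10-week mutants, 0 to 1 between genotypes in the spinal cord, 0 to 0 between ages in the oculomotor nucleus, 1 to 3 between ages in the spinal cord and 0 to 1 for age by region, and 1.06 to 1.39 for the genotype value of Commd1 in the oculomotor nucleus. Over all probe sets, calls numbered 3239, 1841 and 2619 in the comparisons of regions in 6-week mutants, 10-week controls and 10-week mutants, and 310, 314 and 209 with all 18 arrays. Between genotypes in the spinal cord they numbered 3, and 5 without a filter, 2 with quantile normalization, 1 with the arrays of the comparison alone, 0 with 18 and 0 to 51 when single arrays were left out. Between ages in the oculomotor nucleus they numbered 3, and 14 with quantile normalization, 11 with the offset of 100, 8 with the block, 5 without a filter, 2 with the filter of 60% and 0 with the arrays alone and with 18. Between ages in the spinal cord they numbered 374, 41 with the arrays alone and 0 with 18. For age by region they numbered 50, and 20 with median centring, 13 with quantile normalization, 11 with the block and 0 with no filter, the arrays alone and 18. Leaving out single arrays gave 2532 to 2837 calls over all probe sets in 6-week mutants, 875 to 1668 in 10-week controls and 1804 to 2356 in 10-week mutants between regions, 0 to 6 between ages in the oculomotor nucleus, 86 to 257 between ages in the spinal cord and 0 to 23 for age by region. The causes were not tested. With 2 or 3 arrays a group, changes near the size of the standard errors could not be detected.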
